A study of Mus musculus with 8 samples.

Results

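The integrated stress response genes described here are Atf4, Atf3, Ddit3, Ppp1r15a, Trib3, Sesn2, Asns, Chac1, Fgf21 and Gdf15, the transcription factor ATF4 and 9 genes known as its targets or partners. They were chosen by symbol from a table of 54532 genes, of which 28739 were listed at 0 FPKM in all livers. All 10 genes were found, and Ddit3 had a further short row that was listed at 0 FPKM throughout. RNA sequencing was performed on whole livers, 4 from METTL3-HKD and 4 from METTL3-Flox animals, all of which had 1 h of ischemia followed by 6 h of reperfusion (I/R). METTL3-HKD mice were METTL3 flox/-; Alb-iCre, that is, heterozygous for the floxed allele and carrying an albumin-driven Cre recombinase that acts in hepatocytes, and METTL3-Flox mice were METTL3 flox/flox littermates. The floxed segment is exon 4 of Mettl3, the gene of the RNA m6A methyltransferase METTL3. Both groups carry floxed alleles, the other cell types of the liver are not targeted, the age of these mice is not given in the sources used here, and no liver without I/R was part of the series. The comparison is of METTL3-HKD with METTL3-Flox livers after I/R. By their stated genotypes the groups differ in the Cre recombinase and in the floxed alleles. Effects of Cre and of METTL3 dose therefore cannot be told apart here. The paper describes METTL3 expression as reduced in the liver of METTL3-HKD mice. In the livers sequenced, Mettl3 mRNA overlapped between the groups, with values given below.

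The integrated stress response begins when kinases that sense amino acid shortage, heme shortage, viral RNA or unfolded protein in the endoplasmic reticulum phosphorylate the initiation factor eIF2. General translation then falls, while the mRNA of ATF4 is translated more, because short upstream reading frames in its leader are bypassed. ATF4 dimerises with other bZIP proteins, binds C/EBP-ATF response elements and switches on genes of amino acid supply, glutathione breakdown, cell death, feedback on eIF2 and endocrine signalling. In the liver this pathway is known for its answer to nutrient and endoplasmic reticulum stress and for the hormones FGF21 and GDF15. ATF4 is controlled largely at translation, and mRNA levels do not measure its protein.

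Of the 10 genes, 4 were higher in METTL3-HKD livers, namely Atf3, Gdf15, Ppp1r15a and Sesn2, and 0 were lower. The calls rest on limma with Benjamini-Hochberg adjustment over the 16645 genes tested and an adjusted p under 0.05. Across all genes tested, 9.05% were called higher and 6.63% were called lower. Without adjustment, 4 of the 10 genes had a p under 0.05, all of them higher, and voom on rebuilt reads also called 4 higher and 0 lower. The median log2 fold change of the 10 genes was 0.52, against -0.0028 over all genes tested. Their values in METTL3-HKD livers lay above every METTL3-Flox liver for the same 4 genes, a pattern found in 12.7% of all genes tested, and the reverse pattern, found in 9.95% of all genes, was seen in 0 of the 10. With the further demand of a log2 fold change of at least 1, 3 of the 10 were called higher, against 4.7% of all genes, since the unrounded value of Sesn2 fell just short of 1.

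**Figure D1:**
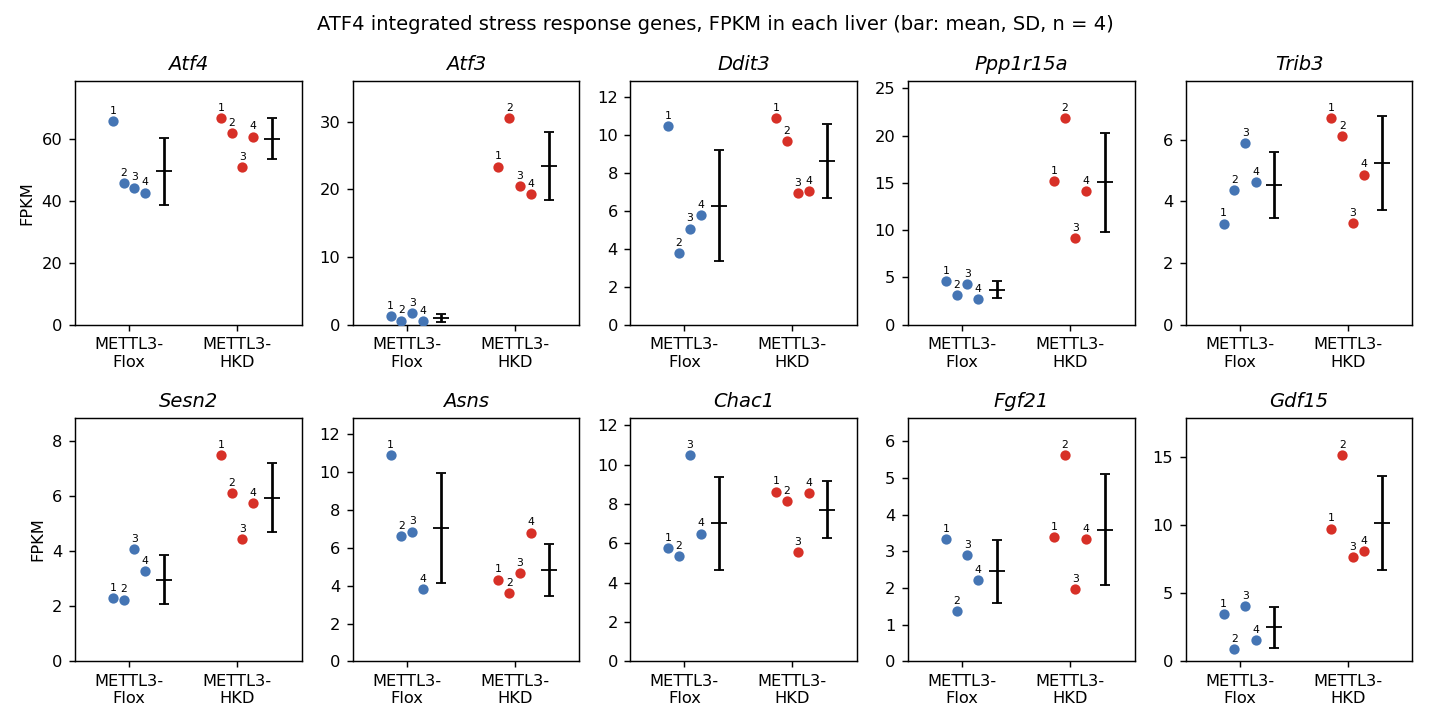
FPKM of the 10 genes in each liver (vertical axes start at 0; numbers are the liver numbers of the labels, blue METTL3-Flox, red METTL3-HKD; the bar gives the mean and SD, n = 4). The groups are apart for Atf3, Ppp1r15a, Sesn2 and Gdf15, and share part of their range for the other 6 genes.

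Wherever 4 values are given for a group, they follow livers 1 to 4. Depth on genes ranged from 15861245 to 18434488 reads per liver. The deposited FPKM had been scaled between libraries, and scaling to the reads on genes instead raised the median over all genes to 0.19 on the log2 scale. Mettl3 itself was measured at 1.56, 1.39, 1.17 and 1.20 FPKM in METTL3-HKD and at 1.84, 1.16, 1.45 and 1.54 FPKM in METTL3-Flox. These ranges overlapped (log2 fold change -0.16, limma adjusted p = 0.556), and under the scaling to reads on genes the difference was 0.047. The gene-level value does not separate exon 4 from the rest of the transcript. METTL3-HKD mice are described as heterozygous, and their hepatocytes share the sample with cells that are not targeted. Whether lower RNA of a gene reflects fewer cells of a type or less RNA per cell cannot be told apart in bulk livers. Nothing in the labels ties the same-numbered livers of both groups to each other.

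Cell type markers also differed between the groups, and their values belong beside the results. Over all genes tested, 9.05% were called higher and 6.63% lower, or 1506 and 1104 genes. Leaving out single livers moved these counts over all genes to between 737 and 1653 higher and between 347 and 1123 lower. All 12 neutrophil markers were called higher in METTL3-HKD livers, with a median log2 fold change of 4.14. Summed, they reached 1695, 399, 350 and 581 FPKM in METTL3-HKD, against 45.2, 28.5, 13.7 and 25.9 FPKM in METTL3-Flox. The defining marker Ly6g was listed at 0 in METTL3-Flox livers 2 to 4. Of 12 Kupffer cell and macrophage markers, 6 were called lower and 0 higher (also 0 higher at an unadjusted p under 0.05 in limma and with voom), with summed levels of 154 to 305 FPKM in METTL3-HKD and 287 to 680 FPKM in METTL3-Flox livers. Without METTL3-HKD liver 1, 3 or 4 or METTL3-Flox liver 1, 3 or 4, between 0 and 2 of these 12 were called lower, and the count was 1 with the scaling to reads on genes, 2 with no minimum level and 3 with no mean-variance trend. The 12 hepatocyte markers, led by Alb, were abundant in every liver and sum to 24102 and 25528 FPKM in METTL3-HKD livers 1 and 2, 33249 and 35545 FPKM in METTL3-HKD livers 3 and 4, and 31582 to 36274 FPKM in METTL3-Flox livers. Only Hnf4a of that list was called (lower, log2 fold change -0.48). Sinusoidal endothelial markers had 2 of 8 called lower (Stab1 and Oit3), and stellate cell markers had 2 of 6 called lower (Lrat and Colec11) and 1 higher (Des). Leaving out single livers gave 0 or 1 hepatocyte marker, 1 or 2 sinusoidal endothelial markers and 1 or 2 stellate cell markers called lower, and 0 or 1 stellate cell marker called higher. With the scaling to reads on genes, 0 hepatocyte, 0 sinusoidal endothelial and 1 stellate cell marker were called lower. The part of these cells in the results on the stress response genes was not tested.

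The binding element of ATF4 was looked for in the promoters, because a shared element is what ties these genes together in textbooks. RefSeq promoter windows of GRCm38.p6, which run from 250 bases before to 50 bases after each transcription start, were matched by symbol for all 10 genes (11 windows, since Gdf15 has 2). The letters of the C/EBP-ATF core, TGATGNAA on either strand, occur in 3.97% of all 32851 windows and in the windows of 5 of the 10 genes. The full cAMP response element TGACGTCA, bound by ATF and CREB dimers, occurs in 1.79% of all windows, and the AP-1 letters TGANTCA, bound by FOS and JUN dimers, in 7.81%. None of these letter patterns overlapped another in the windows printed here. Each stretch below reads 5′ to 3′ on the strand of its gene, and capitals mark the matched letters (in 4 of the 5 C/EBP-ATF matches the core is read from the opposite strand):
Atf3: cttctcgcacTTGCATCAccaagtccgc
Chac1: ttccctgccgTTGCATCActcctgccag
Fgf21: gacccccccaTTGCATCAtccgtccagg
Asns: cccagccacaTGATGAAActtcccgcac
Trib3: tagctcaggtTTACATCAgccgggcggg
Ppp1r15a: gcctctccggTGACGTCAgcacagcgcc
Ddit3: cgcgcgcaTGACTCActcacctcct

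The Atf3, Chac1 and Fgf21 matches carry the same 8 letters, TTGCATCA, 110, 193 and 139 bases before their RefSeq transcription starts (chr1:191183426-191183453 on the minus strand, chr2:119351039-119351066 on the plus strand and chr7:45615612-45615639 on the minus strand). The Asns match starts 23 bases before its RefSeq start (chr6:7693215-7693242, minus strand), and the Trib3 match lies within the first bases transcribed by RefSeq (chr2:152344029-152344056, minus strand). By the gene spans of the FPKM rows, given below, the Atf3 and Asns matches lie inside the gene and the Trib3 match just before it. Promoters at other starts were not searched. Ppp1r15a has the cAMP response element 12 bases before its start (chr7:45526263-45526290, minus strand), and Ddit3 has the AP-1 letters 242 bases before its start (chr10:127290543-127290567, plus strand). Atf4, Sesn2 and Gdf15 had none of these letters in their windows. Set against the RNA, the C/EBP-ATF core was in the window of 1 of the 4 genes called higher, Atf3, and in 4 of the 6 that were not called. A match is a run of letters in a short window and no measure of binding.

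**Figure D2:**
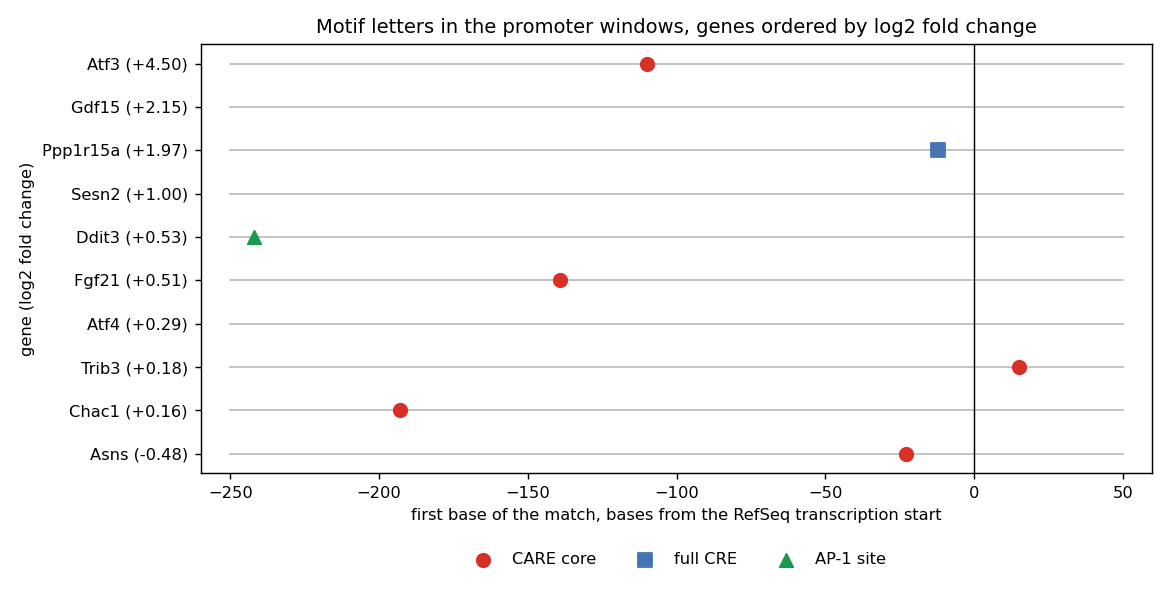
Position of the matched letters in each promoter window (horizontal axis, bases from the RefSeq transcription start at 0; red circles C/EBP-ATF core, labelled CARE core, blue square cAMP response element, labelled full CRE, green triangle AP-1), with the genes ordered by log2 fold change, METTL3-HKD minus METTL3-Flox. The 5 red circles lie on Atf3 at the top of the order and on Fgf21, Trib3, Chac1 and Asns further down.

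Among the transcription factors, Atf4 (ENSMUSG00000042406, chr15:80255184-80257541 of GRCm38) was the most abundant of the 10 genes per length in every liver. It was measured at 66.6, 61.9, 50.8 and 60.7 FPKM in METTL3-HKD and at 65.7, 45.7, 44.2 and 42.6 FPKM in METTL3-Flox. METTL3-Flox liver 1 was close to the highest METTL3-HKD liver, while METTL3-Flox livers 2, 3 and 4 were below all METTL3-HKD livers. Its log2 fold change was 0.29 (SE 0.152, 95% interval -0.05 to 0.64), which did not pass the test (limma adjusted p = 0.221, exact permutation p = 0.114, two-sided over 70 arrangements). Only 2 of the 18 alternatives brought Atf4 past the threshold in limma: without METTL3-Flox liver 1 its log2 fold change was 0.43 (adjusted p = 0.0343), and with the scaling to reads on genes it was 0.51 (adjusted p = 0.0469), where the median of all genes was itself at 0.19. In the first-numbered coding transcript of GENCODE M21, Atf4 has a leader of 594 bases with 3 ATG triplets before its start codon, the layout behind its control at translation.

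Atf3 (ENSMUSG00000026628, chr1:191170296-191218039), a stress-inducible bZIP factor that ATF4 switches on, had the largest difference of the 10 genes. It was measured at 23.4, 30.5, 20.5 and 19.4 FPKM in METTL3-HKD and at 1.31, 0.603, 1.71 and 0.519 FPKM in METTL3-Flox. The lowest METTL3-HKD liver was far above the highest METTL3-Flox liver. On the log2(FPKM + 0.1) scale the difference was 4.50 (SE 0.339, 95% interval 3.73 to 5.26, limma adjusted p = 0.000589), and the ratio of mean FPKM was 22.6. The exact permutation p was 0.0286, the smallest that 4 against 4 livers can give. Atf3 thus had the lowest mean level of the 10 genes in METTL3-Flox livers, at 1.03 ± 0.572 FPKM (SD, n = 4), and ranked next to Atf4 in METTL3-HKD livers, at 23.4 ± 5.02 FPKM (SD, n = 4). METTL3-Flox livers held 18 to 56 reads of Atf3 and METTL3-HKD livers 775 to 1215. In METTL3-HKD the lowest liver for Atf3 was liver 4, and the highest was liver 2. The neutrophil sum was lowest in liver 3 and highest in liver 1, and its part in the Atf3 values was not tested.

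Ddit3 (ENSMUSG00000025408, chr10:127290774-127296288), which encodes the pro-apoptotic factor CHOP and is a target of ATF4, did not pass the test. Its values were 10.9, 9.67, 6.92 and 7.04 FPKM in METTL3-HKD and 10.5, 3.76, 5.07 and 5.77 FPKM in METTL3-Flox. As for Atf4, METTL3-Flox liver 1 lay within the METTL3-HKD range and METTL3-Flox livers 2, 3 and 4 lay below it. The difference on the log2 scale was 0.53 (SE 0.291, 95% interval -0.13 to 1.19, limma adjusted p = 0.243, exact permutation p = 0.2), and without METTL3-Flox liver 1 it was 0.81 with an adjusted p of 0.0432 in limma. The exons of Ddit3 share 68 bases with Mars on the opposite strand and 105 bases with the second Ddit3 row (ENSMUSG00000116429), and the strand setting of the counting is not stated. That second row, at 0 FPKM in all livers, annotates a reading frame of 34 codons that lies at bases 56 to 160 of the Ddit3 leader and ends 26 bases before the main start codon.

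Among the genes of feedback, Ppp1r15a (ENSMUSG00000040435, chr7:45522916-45526268) was called higher. It encodes GADD34, the subunit that directs protein phosphatase 1 to eIF2 and so ends the response. METTL3-HKD livers had 15.2, 21.9, 9.12 and 14.1 FPKM, and METTL3-Flox had 4.62, 3.12, 4.26 and 2.75 FPKM. No METTL3-Flox liver reached the lowest METTL3-HKD liver, liver 3. This gave a log2 fold change of 1.97 (SE 0.263, 95% interval 1.37 to 2.56, limma adjusted p = 0.00412, exact permutation p = 0.0286), and the ratio of mean FPKM was 4.09. Under all 18 alternatives the adjusted p of Ppp1r15a in limma stayed at or below 0.0199.

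Sesn2 (ENSMUSG00000028893, chr4:132492032-132510501), the stress-induced inhibitor of mTORC1 sestrin 2, was also called higher, with a smaller difference. Its levels were 7.51, 6.14, 4.44 and 5.74 FPKM in METTL3-HKD against 2.31, 2.24, 4.09 and 3.27 FPKM in METTL3-Flox. The groups were apart by a narrow margin, since METTL3-Flox liver 3 came close to METTL3-HKD liver 3. Sesn2 had a log2 fold change of 1.00 (SE 0.221, 95% interval 0.50 to 1.50, limma adjusted p = 0.0205, exact permutation p = 0.0286). The call was lost in limma without METTL3-HKD liver 1 (adjusted p = 0.0630), METTL3-HKD liver 2 (0.0579) or METTL3-Flox liver 2 (0.0572).

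For Trib3 (ENSMUSG00000032715, chr2:152337422-152344032), a pseudokinase that binds ATF4 and dampens its activity, the groups overlapped widely. METTL3-HKD had 6.69, 6.11, 3.28 and 4.86 FPKM, and METTL3-Flox had 3.28, 4.37, 5.88 and 4.62 FPKM. The lowest livers of both groups were level with each other. Trib3 differed by 0.18 on the log2 scale (SE 0.242, 95% interval -0.36 to 0.73, limma adjusted p = 0.642, exact permutation p = 0.429), an interval that still admits a ratio from 0.777 to 1.66.

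The enzyme genes did not pass the test. Asns (ENSMUSG00000029752, chr6:7675169-7693254), which encodes asparagine synthetase and is among the best known ATF4 targets in amino acid shortage, was the only one of the 10 genes with a negative log2 fold change. It was measured at 4.33, 3.62, 4.66 and 6.81 FPKM in METTL3-HKD and at 10.9, 6.61, 6.85 and 3.84 FPKM in METTL3-Flox. METTL3-Flox livers 2 and 4 fell inside the METTL3-HKD range, and METTL3-Flox liver 1 was the highest of all 8. The log2 fold change was -0.48 (SE 0.301, 95% interval -1.16 to 0.20, limma adjusted p = 0.309, exact permutation p = 0.257).

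Chac1 (ENSMUSG00000027313, chr2:119351229-119354381) encodes a gamma-glutamylcyclotransferase that breaks down glutathione. It had 8.62, 8.13, 5.55 and 8.55 FPKM in METTL3-HKD and 5.76, 5.33, 10.5 and 6.49 FPKM in METTL3-Flox. A METTL3-Flox liver, liver 3, was the highest of all 8, and the METTL3-HKD range lay inside the METTL3-Flox range. Chac1 differed by 0.16 on the log2 scale (SE 0.226, 95% interval -0.35 to 0.68, limma adjusted p = 0.656, exact permutation p = 0.657).

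Of the secreted factors, Gdf15 (ENSMUSG00000038508, chr8:70629393-70632456) was called higher. It encodes a stress hormone of the TGF-beta family that acts on the brainstem. METTL3-HKD had 9.74, 15.2, 7.68 and 8.11 FPKM, and METTL3-Flox had 3.50, 0.902, 4.05 and 1.54 FPKM. The groups did not overlap, and the METTL3-Flox livers varied more among themselves on the log scale, from 27 to 114 reads. The log2 fold change was 2.15 (SE 0.440, 95% interval 1.16 to 3.15, limma adjusted p = 0.0157, exact permutation p = 0.0286), and the ratio of mean FPKM was 4.07. The adjusted p stayed under 0.05 in limma in all 18 alternatives, reaching 0.0499 without METTL3-Flox liver 4.

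Fgf21 (ENSMUSG00000030827, chr7:45613886-45615490), the hepatic hormone of fasting and nutrient stress, had the lowest mean level of the 10 genes in METTL3-HKD livers, at 3.59 ± 1.51 FPKM (SD, n = 4). Its values were 3.40, 5.63, 1.98 and 3.34 FPKM in METTL3-HKD against 3.33, 1.37, 2.91 and 2.22 FPKM in METTL3-Flox. The ranges overlapped, and only 21 to 99 reads per liver fell on the gene. The log2 fold change was 0.51 (SE 0.340, 95% interval -0.26 to 1.28, limma adjusted p = 0.337, exact permutation p = 0.229), so that a ratio from 0.835 to 2.42 lay within the interval.

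The 10 genes did not share one order of the livers. Within METTL3-HKD, liver 3 was the lowest for 8 of the 10, and liver 1 or liver 2 was the highest for 9, the exception being Asns with liver 4. Livers 3 and 2 were also the METTL3-HKD livers with the lower neutrophil sums, and livers 1 and 2 those with the lower hepatocyte sums. Within METTL3-Flox, liver 1 was the highest for 5 genes (Atf4, Ddit3, Ppp1r15a, Asns and Fgf21) and liver 3 for the other 5. METTL3-Flox liver 1 had the highest neutrophil sum of its group, and liver 3 had the lowest.

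**Figure D3:**
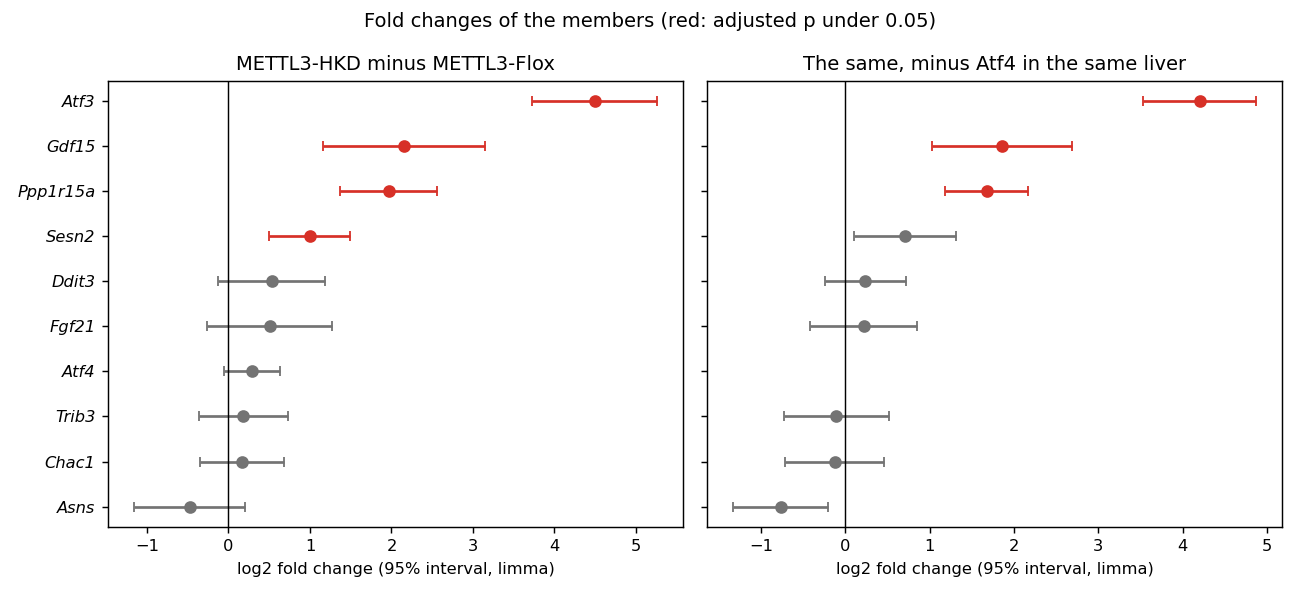
Log2 fold change of each gene with its 95% interval from limma on log2(FPKM + 0.1) (horizontal axes), on the left for METTL3-HKD minus METTL3-Flox and on the right after the value of Atf4 in the same liver was subtracted; red marks an adjusted p under 0.05. Atf3, Gdf15, Ppp1r15a and Sesn2 are red on the left, Atf3, Gdf15 and Ppp1r15a on the right, and Asns is the gene whose point lies furthest below 0 in both.

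To ask whether the other 9 genes moved with Atf4 mRNA, the log2 value of Atf4 in the same liver was subtracted from every gene and the limma fit repeated over 16644 genes. Atf3, Gdf15 and Ppp1r15a changed more than Atf4, by 4.20 (SE 0.306, adjusted p = 6.7e-05), 1.86 (SE 0.379, adjusted p = 0.0151) and 1.68 (SE 0.225, adjusted p = 0.00176) on the log2 scale. Across all other genes, 3.23% had a larger difference than Atf4 and 7.15% a smaller one by the same rule. Gdf15 lost its call without METTL3-Flox liver 4 (adjusted p = 0.0515 in limma). Sesn2 differed from Atf4 by 0.70 (95% interval 0.10 to 1.31, limma adjusted p = 0.113), which did not pass, and Asns by -0.77 (95% interval -1.33 to -0.21, limma adjusted p = 0.0742). None of the 9 genes was called smaller than Atf4, and Asns was called with a pseudocount of 1 FPKM (adjusted p = 0.0499 in limma) and with array quality weights (0.0395). The differences of Ddit3, Fgf21, Trib3 and Chac1 from Atf4 ranged from -0.13 to 0.24, with limma adjusted p between 0.476 and 0.818.

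As a share of the Atf4 level in the same liver, Atf3 stood at 35.1%, 49.3%, 40.3% and 31.9% in METTL3-HKD and at 1.99%, 1.32%, 3.87% and 1.22% in METTL3-Flox. Ppp1r15a stood at 22.9%, 35.3%, 18.0% and 23.3% of Atf4 in METTL3-HKD and at 7.04%, 6.82%, 9.63% and 6.46% in METTL3-Flox livers. For Gdf15 the shares were 14.6%, 24.5%, 15.1% and 13.4% in METTL3-HKD and 5.32%, 1.97%, 9.16% and 3.62% in METTL3-Flox livers. The groups were apart for these 3 genes (exact permutation p = 0.0286 each), and METTL3-Flox liver 3 was the highest of its group for each of them. The share of Sesn2 was 9.85 ± 1.06% (SD, n = 4) in METTL3-HKD and 6.34 ± 2.60% (SD, n = 4) in METTL3-Flox livers, with overlap and an exact permutation p of 0.0571. Asns stood at 8.18 ± 2.48% of Atf4 (SD, n = 4) in METTL3-HKD and at 13.9 ± 3.37% (SD, n = 4) in METTL3-Flox livers, again with overlap (exact permutation p = 0.0857).

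**Figure D4:**
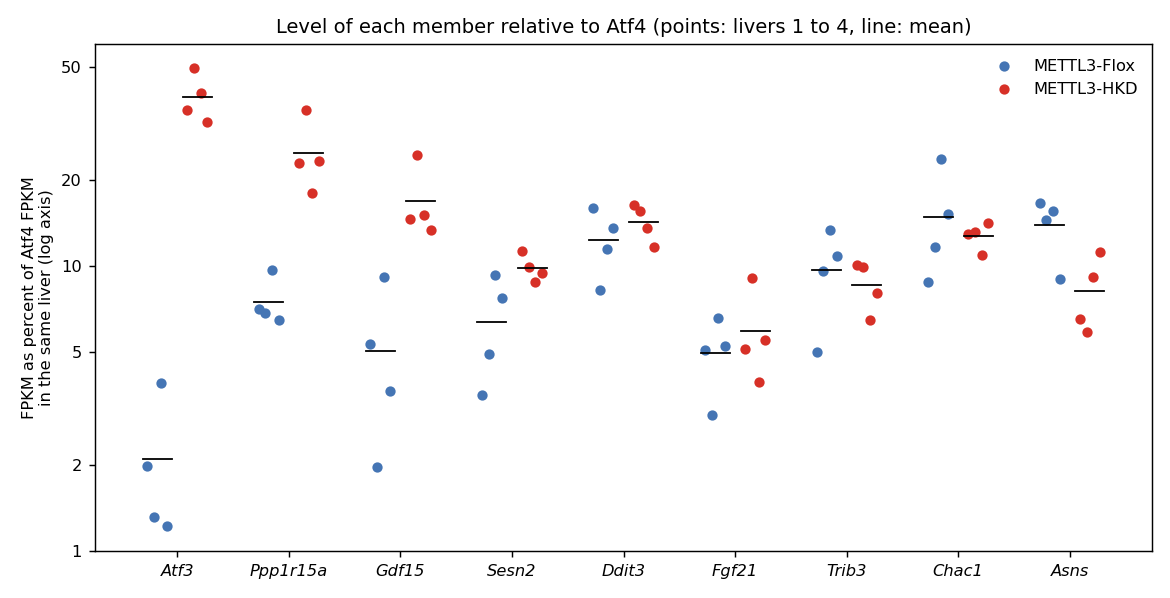
FPKM of 9 genes as a percentage of the FPKM of Atf4 in the same liver (logarithmic vertical axis; points are livers, blue METTL3-Flox and red METTL3-HKD, lines are means). Atf3 rises from 1.22–3.87% to 31.9–49.3%, the groups are also apart for Ppp1r15a and Gdf15, and they overlap for the remaining 6 genes.

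Upstream of ATF4, 20 genes were tested, of which 5 were called higher and 1 lower (9.05% and 6.63% over all genes tested). Their median log2 fold change was 0.14. The list held genes of the eIF2 kinases, of eIF2 and of its exchange factor eIF2B. It also held Gcn1l1, Impact, Oma1 and Dele1 and the phosphatase genes Ppp1r15b, Ppp1ca, Ppp1cb and Ppp1cc. Of the kinases, Eif2ak4, which encodes the amino acid sensor GCN2, was called higher at 3.37 ± 1.54 FPKM against 1.32 ± 0.167 FPKM (SD, n = 4 each, log2 fold change 1.16, limma adjusted p = 0.0436), although METTL3-HKD liver 3 lay within the METTL3-Flox range. The call of Eif2ak4 was lost under 11 of 18 alternatives. Eif2ak1 (the heme sensor HRI), Eif2ak2 (the RNA sensor PKR) and Eif2ak3 (the endoplasmic reticulum sensor PERK) had log2 fold changes of -0.09, -0.39 and 0.07 and did not pass the test, and the sign of Eif2ak1 turned with the scaling to reads on genes (0.12). Impact, whose product inhibits GCN2, was higher with 10.5, 9.81, 4.32 and 5.41 FPKM in METTL3-HKD against 2.36 to 2.97 FPKM in METTL3-Flox livers (log2 fold change 1.37, limma adjusted p = 0.0143). Oma1, the mitochondrial protease that signals to HRI, was lower (log2 fold change -0.49, limma adjusted p = 0.0188), and the eIF2 and eIF2B subunit genes Eif2s1, Eif2b2 and Eif2s3x were higher by 0.36, 0.42 and 0.33 on the log2 scale. Without METTL3-HKD liver 1, 2 or 4 or METTL3-Flox liver 2 or 3, 1 gene of this list was called higher, without METTL3-Flox liver 4 it was 3, with no mean-variance trend it was 2, and Oma1 was no longer called without METTL3-HKD liver 2 or METTL3-Flox liver 3. The scaling to reads on genes also ended the call of Oma1 (log2 fold change -0.28, limma adjusted p = 0.0783), which left 0 genes of this list called lower. These counts concern mRNA, and the phosphorylation of eIF2 was not measured.

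Downstream, of 18 tested ATF4 targets in amino acid synthesis, one-carbon metabolism and uptake, 6 were called higher and 2 lower. These counts stand against 9.05% and 6.63% over all genes tested. The median log2 fold change of the 18 was 0.34. Aldh1l2, Bcat1 and Slc7a3 were under the minimum level and not tested. Slc7a11, the cystine transporter, was covered by 113 to 615 reads in METTL3-HKD and by 0 to 12 in METTL3-Flox livers, or 2.20, 0.439, 0.744 and 1.46 FPKM against 0, 0.0533, 0.00472 and 0.00892 FPKM (limma adjusted p = 0.00412). Its partner chain Slc3a2 rose with a log2 fold change of 1.01 (limma adjusted p = 0.0108), and Psat1 of serine synthesis rose by 1.46 (limma adjusted p = 0.0137). The members called lower were Cth, from 58.8 ± 3.77 to 35.1 ± 7.09 FPKM (SD, n = 4 each, limma adjusted p = 0.0117), and Cbs, from 109 to 60.9 FPKM on average, which encode the enzymes of transsulfuration that make cysteine from homocysteine. Without METTL3-HKD liver 1, 2 or 4 or METTL3-Flox liver 3 or 4, or with the scaling to reads on genes, no minimum level or no mean-variance trend, 1 of these 18 was called lower. With a minimum of 1 FPKM 3 were called higher. The other genes called higher, Slc7a11 among them, averaged less than 1 FPKM and were then not tested.

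Of 15 tested targets in stress signalling, 3 were called higher and 3 lower (9.05% and 6.63% over all genes tested). Stc2 was under the minimum level. With the scaling to reads on genes the counts in this list were 5 higher and 1 lower. The higher count was also 5 with array quality weights and with protein-coding genes only. Ndrg1, a hypoxia and stress response gene, was higher with a log2 fold change of 1.89 (limma adjusted p = 0.0104). Tnfrsf10b, the death receptor of TRAIL, was higher by 1.20 and Vldlr, a lipoprotein receptor, by 1.07, both at low levels. Tnfrsf10b had 0.328 to 0.429 FPKM in METTL3-HKD against 0.0483 to 0.181 FPKM (4 to 14 reads) in METTL3-Flox livers. Vldlr had 0.199 to 0.331 against 0.0430 to 0.111 FPKM (7 to 17 reads). With a pseudocount of 1 FPKM, Tnfrsf10b was at 0.32, and its call was lost without METTL3-HKD liver 1 and with the replicate block. Atf5, a bZIP factor under the same kind of translational control as ATF4, was lower, at 117 ± 8.05 FPKM in METTL3-HKD against 241 ± 45.3 FPKM in METTL3-Flox livers (SD, n = 4 each, log2 fold change -1.03, limma adjusted p = 0.00523). Map1lc3b, an autophagosome component, was lower by -0.49 and Herpud1, a factor of protein degradation at the endoplasmic reticulum, by -0.81 on the log2 scale. With the scaling to reads on genes, Map1lc3b was at -0.27 and no longer called (limma adjusted p = 0.0740). Without METTL3-HKD liver 1, 1 of the 15 was called higher, and without METTL3-HKD liver 3 it was 5.

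The aminoacyl-tRNA synthetase genes, a classical ATF4 output, gave no call among 13 tested by limma, a list that also held Xpot, a gene of tRNA export. Over all genes tested, 9.05% were called higher and 6.63% lower, so that few calls would be awaited in a list of this size. Their median log2 fold change was 0.00022. At an unadjusted p under 0.05 there were 2, Gars (20.5 ± 0.588 against 17.4 ± 0.953 FPKM, SD, n = 4 each) and Lars (12.4 ± 0.782 against 10.4 ± 0.721 FPKM, SD, n = 4 each), and voom on rebuilt reads called 0. Scaling to reads on genes called Gars and Lars higher, and Gars was also called without METTL3-Flox liver 1 and with array quality weights. Iars and Aars had log2 fold changes of 0.20 and -0.18, and the latter turned to 0.032 with the scaling to reads on genes.

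The ATF6 and XBP1 arms of the unfolded protein response run beside the PERK and ATF4 arm. Of 24 genes listed for them, 7 were called lower and 1 higher (6.63% and 9.05% over all genes tested). The median log2 fold change of the list was -0.32. Calr, a chaperone of the endoplasmic reticulum, was at 370 ± 18.3 FPKM in METTL3-HKD and 565 ± 74.7 FPKM in METTL3-Flox livers (SD, n = 4 each, limma adjusted p = 0.0177). Sel1l, of the degradation complex, and Ero1lb, an oxidase, were lower by -0.48 and -0.50 on the log2 scale. The gene called higher was the oxidase Ero1l, at 18.9, 10.6, 10.3 and 11.2 FPKM in METTL3-HKD against 3.87 to 4.63 FPKM in METTL3-Flox livers (log2 fold change 1.50, limma adjusted p = 0.00367). Which arm Ero1l answered to in these livers was not tested. The count called lower was 0 with the scaling to reads on genes, 1 without METTL3-Flox liver 3, 2 without METTL3-Flox liver 4 or METTL3-HKD liver 4, 3 without METTL3-HKD liver 1 or 3 and with no minimum level or no mean-variance trend, and 4 without METTL3-HKD liver 2 or METTL3-Flox liver 1.

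Among 23 genes of bZIP proteins that can pair with ATF4, ATF3 or CHOP, 11 were called higher and 2 lower. Over all genes tested these shares were 9.05% and 6.63%. The median log2 fold change of the 23 was 0.51. The 4 with the smallest p were Fos, Fosl1, Maff and Atf5. Fos, a subunit of AP-1, was measured at 25.8, 12.6, 9.18 and 11.8 FPKM in METTL3-HKD against 0.502 to 1.29 FPKM in METTL3-Flox livers (log2 fold change 4.04, limma adjusted p = 0.00112). Fosl1, of the same family, was at 3.76 to 14.4 FPKM against 0.0824 to 0.326 FPKM, the latter from 2 to 9 reads per liver. Maff, a small MAF protein, was at 10.7 to 23.2 FPKM against 0.353 to 1.48 FPKM (log2 fold change 4.06, limma adjusted p = 0.0019). In each of these 3 genes, as in Atf3, all METTL3-HKD livers were above all METTL3-Flox livers. The genes called lower were Atf5 and Cebpa, the hepatocyte factor C/EBP alpha (log2 fold change -0.91). The count called higher was 5 without METTL3-HKD liver 1 or 2 or METTL3-Flox liver 2 or 3, and 7 without METTL3-Flox liver 4.

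For the hormones, genes of beta-klotho, of FGF receptors and of the GDF15 receptor were looked up, and those called were lower. Which of them answer FGF21 in these livers was not tested. Of 5 tested receptor genes, 3 were called lower and 0 higher, against 6.63% and 9.05% of all genes tested. None was higher at an unadjusted p under 0.05 in limma, and voom called 0 higher. Klb, the co-receptor beta-klotho, was at 4.08 ± 0.994 FPKM in METTL3-HKD and 7.56 ± 1.49 FPKM in METTL3-Flox livers (SD, n = 4 each, limma adjusted p = 0.0269), Fgfr4 at 12.9 ± 1.55 and 19.5 ± 2.26 FPKM (0.0145), and Fgfr3 at 1.89 ± 0.467 and 3.37 ± 0.616 FPKM (0.0287). Fgfr1, the main partner of beta-klotho for FGF21 in fat, had a log2 fold change of 0.36 and did not pass. Gfral, the receptor of GDF15, was listed at 0 in all 8 livers, and its co-receptor Ret was under the minimum level. Without METTL3-HKD liver 1 or METTL3-Flox liver 2, 3 or 4, 1 of the 5 was called lower, without METTL3-HKD liver 2 it was 2, and with the scaling to reads on genes it was 1.

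**Figure D5:**
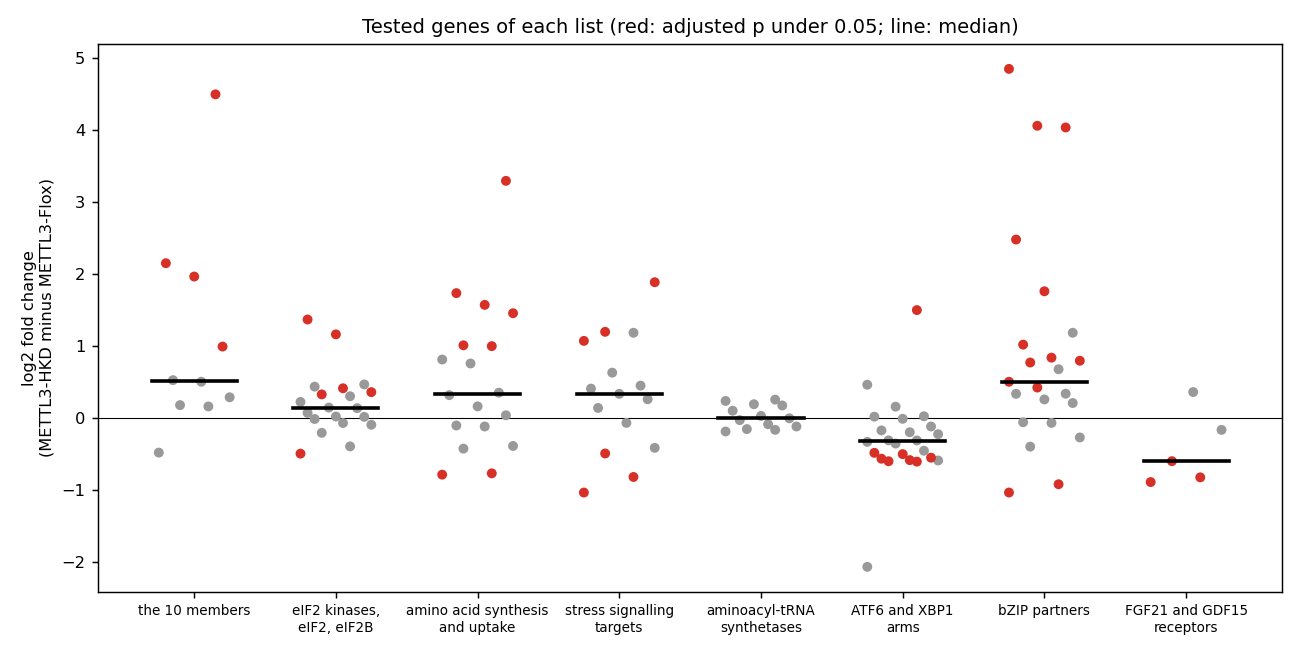
Log2 fold change, METTL3-HKD minus METTL3-Flox (vertical axis), of every tested gene in the 10 stress response genes and in each list of pathway genes; red marks an adjusted p under 0.05 and the line is the median. The medians lie between -0.59 for the receptors and 0.52 for the 10 genes, with the synthetases near 0 and Atf3, Fos, Fosl1 and Maff above 4.

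Likeness of pattern was measured over the 8 livers among 10693 other genes averaging 1 FPKM or more, as the root mean square difference of profiles scaled to the same mean and SD. The genes most like Atf4 were Pisd, Srp14 and Ubl4a (differences of 0.235 to 0.243 SD). For Atf3 they were Gar1, Slc39a10 and Susd1 (0.143 to 0.162 SD), and for Ppp1r15a Sat1, Gar1 and Ak6 (0.121 to 0.160 SD). Gar1, a gene of small nucleolar ribonucleoproteins, was thus near both. For Sesn2 the nearest were Mtdh, Arih1 and Spindoc (0.151 to 0.198 SD), and for Gdf15 Med6, Gorab and Qsox2 (0.194 to 0.237 SD). These values describe 8 libraries in 2 groups, and any gene that differs between the groups will be near others that do.

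In the annotation the length used for each of the 10 genes equals the union of its exons in GENCODE M21. ATG triplets before the start codon of the first-numbered coding transcript numbered 4 in Gdf15, 3 in Atf4 and Ppp1r15a, 2 in Ddit3 and Asns, and 1 in Atf3 and Sesn2, with 0 in Trib3, Chac1 and Fgf21. The 4 genes called higher carried 1 to 4 such triplets and the 6 others 0 to 3, ranges that overlap. Leaders ran from 169 bases in Asns to 594 bases in Atf4, and the triplets in transcripts of other genes were not counted. Ppp1r15a shares 12 exonic bases with Tulp2 on the opposite strand, and apart from Ddit3 the remaining genes share no exonic base with another gene.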

How the data were processed

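RNA was sequenced from 8 mouse livers (4 METTL3-HKD, 4 METTL3-Flox), grouped by the sample labels. The authors deposited FPKM and a gene length for each gene. The submitters' processing notes name GRCm38 and mm10, and the aligner, counter, annotation and strand setting are not given in the sources used here. FPKM multiplied by length gave whole reads in every library (100% of values above 0, within 0.02 of a whole number), which were used for depth (15861245 to 18434488 reads on genes) and for voom. FPKM were scaled between libraries before deposition, with effective library sizes of 1.01 to 1.17 times the reads on genes in METTL3-HKD and 0.84 to 1.01 times in METTL3-Flox livers.

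Genes averaging 0.1 FPKM or more were compared on log2(FPKM + 0.1), so that fold changes of low genes are understated, with limma 3.58.1 in R 4.3.3 (lmFit, eBayes with trend, two-sided) and Benjamini-Hochberg adjustment over all genes tested. Single genes were compared with exact permutation tests of the difference of means over all 70 arrangements (Python 3.11.15). The limma p-values set the group difference against the spread between livers within the groups. The exact p-values set it against all rearrangements of the livers. The limma fit was tried on simulated reads with large planted differences only and without the scaling between libraries. Smaller differences, such as that of Sesn2, were not covered.

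The genes and lists were chosen with earlier results of these data known. All 10 genes were named. From each pathway list, the 4 genes with the smallest p and every eIF2 kinase were named, with the 3 genes nearest in pattern to Atf4 and to each called gene. Further genes named to complete a count (Eif2s3x, Cbs, Vldlr, Herpud1, Cebpa, Gfral, Ret and the single cell type markers) were chosen after their values were seen. Alternatives changed one choice at a time: a pseudocount of 1 FPKM, a minimum of 1 FPKM or none, median-of-ratios scaling, scaling to reads on genes, no trend, array quality weights, a replicate block, protein-coding genes, voom, and the omission of each liver. Same-numbered livers deviated from their group means with correlations of 0.140, -0.160, -0.043 and -0.104, and were not treated as pairs. Promoter windows are those of RefSeq for GRCm38.p6.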

Additional observations from a re-analysis of the deposited data

Results flagged for a closer look

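In 20 groups examined (10 genes in each of 2 genotypes), a liver stood apart from the rest of its group in 2, where chance gives about 1 in 20. Atf4 in METTL3-Flox liver 1 was at 65.7 FPKM, with the next METTL3-Flox liver at 45.7 FPKM, a gap of 0.864 of the range of the group. Chac1 in METTL3-HKD liver 3 was at 5.55 FPKM, with the next METTL3-HKD liver at 8.13 FPKM, a gap of 0.840 of the range of the group. Without METTL3-Flox liver 1, limma called Atf4 and Ddit3 higher in METTL3-HKD livers, which brought the number of stress response genes called higher to 6.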

How the results depend on the processing

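The number of stress response genes called higher was 4 in 12 of 18 alternatives and lay between 3 and 6, and the number called lower was 0 in all 18. Atf3, Ppp1r15a and Gdf15 were called in all 18. Sesn2 was lost with the replicate block (log2 fold change 1.00, limma adjusted p = 0.0655) and without METTL3-HKD liver 1, METTL3-HKD liver 2 or METTL3-Flox liver 2. With these livers left out in turn, its log2 fold change was 0.88, 0.97 and 0.88, and the cause of the lost calls was not tested. The replicate numbers share only a number, and the fit with the replicate block gave 971 genes called higher and 645 lower over all genes, against 1506 and 1104 without the block. Scaling to reads on genes gave 2304 higher and 374 lower, since the median log2 fold change was then 0.19 and not -0.0028. The omission of each liver in turn gave 737 to 1653 genes higher and 347 to 1123 lower, with fewer samples in the fit. With no minimum level 682 genes were lower, over 25793 genes tested. Relative to Atf4, 0 genes of 9 were called smaller, but 1, Asns, with a pseudocount of 1 FPKM and with array quality weights (the cause was not tested). Signs turned for values that passed no test: with the scaling to reads on genes, Eif2ak1 was at 0.12, Aars at 0.032 and Mettl3 at 0.047, and relative to Atf4, with a liver left out, Trib3 ranged from -0.39 to 0.071, Chac1 from -0.35 to 0.13 and Fgf21 from -0.0092 to 0.38. Among the 10 genes, Fgf21, with 21 to 99 reads, and Atf3 in METTL3-Flox livers, with 18 to 56, have the least depth.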
